A study of Mus musculus with 3 samples.

Results

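The genes described here are the Wnt ligands (Wnt), the Frizzled receptors (Fzd), the secreted antagonists (Sfrp and Dkk), the co-receptors Lrp5 and Lrp6, the acyltransferase Porcn, the R-spondins Rspo1, Rspo2 and Rspo3, the Tcf factors Tcf7, Tcf7l1 and Tcf7l2, and the feedback inhibitor Axin2, in mouse embryonic stem (ES) cells with and without Pcgf1. They were taken by their symbols, and their values were not used as a filter. Earlier results of these data were known when the genes were chosen. In all, 42 such genes were named in at least 1 sample's file and 41 in all 3 files, out of 25350 genes named in all 3 files. Pcgf1 is the subunit that defines PRC1.1, a Polycomb complex. RNA-seq was performed on 1 sample each of 3 ES cell lines of C57BL/6 background. All were grown with leukemia inhibitory factor and fetal calf serum on mouse embryonic fibroblasts inactivated with mitomycin-C. The first sample was wild-type (WT) cells. The second was Pcgf1 KO cells, made with Cas9 and a pair of guide RNAs against exons 2 and 3 of Pcgf1 and grown from a picked colony. The third was Pcgf1 KO+Pcgf1_flag cells, called rescued cells below, in which the Pcgf1 KO cells were infected with a lentivirus for a Pcgf1 cDNA with an N-terminal FLAG tag and selected with puromycin. By this origin the rescued cells should carry the Pcgf1 deletion too, with their Pcgf1 from a viral vector. With 1 sample per line, no difference below has a replicate check, and line, culture and genotype cannot be told apart.

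Wnt proteins are secreted lipid-modified ligands. Porcn attaches the lipid in the endoplasmic reticulum, and the carrier Wls brings the ligand to the surface. At the receiving cell a Frizzled receptor together with Lrp5 or Lrp6 binds the ligand, which stops the destruction of beta-catenin, and beta-catenin then acts in the nucleus with Tcf factors on target genes such as Axin2, whose product is itself part of the destruction complex. Other ligands, such as Wnt5a, signal mainly without beta-catenin. Sfrp proteins bind ligands, Dkk proteins mostly bind the co-receptors, and R-spondins strengthen the signal by sparing the receptors from removal. In ES cells, Wnt signals help to maintain self-renewal, in part by relieving repression by Tcf7l1, and in the embryo they are needed for mesoderm formation.

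The deposited values are FPKM (fragments per kilobase of transcript, scaled to library size), listed by the authors per event, such as a first exon, a last exon or a skipped exon. A gene was given the summed FPKM over its first exons or over its last exons, whichever sum was larger. Ratios were taken as log2 of FPKM plus 0.1 in 1 sample over FPKM plus 0.1 in another, which understates the change of low genes, and a difference past 2-fold was counted without a test. The depth of the libraries was known only through the steps between the lowest FPKM values, which gave the estimated fragment numbers below. An entry of 0 is given only as listed at 0. Pcgf1 itself was at 13.952 FPKM in WT, 5.8842 FPKM in Pcgf1 KO and 7.8619 FPKM in rescued cells. A transcript joining exon 1 of Pcgf1 to exon 4 was listed only in Pcgf1 KO, at 5.8842 FPKM. It was not listed in rescued cells, which come from the Pcgf1 KO line. The deletion was thus not seen in the listed transcripts of rescued cells, and the source of their Pcgf1 RNA was not tested. ES cell marker genes were high in all 3 samples. Of the 8 markers, 6 were measured, with summed levels of 1908 FPKM in WT, 1908 FPKM in Pcgf1 KO and 1720 FPKM in rescued cells. Of the 6, Nanog alone passed 2-fold, in rescued cells against Pcgf1 KO, and was at 68.2, 46.3 and 123 FPKM in WT, Pcgf1 KO and rescued cells. Of 22 markers of the feeder fibroblasts, 21 were measured and 19 were above 0, with Postn and Fap listed at 0 throughout. Their sum was 142 FPKM in WT, 98.4 FPKM in Pcgf1 KO and 114 FPKM in rescued cells, and most of it was Fn1, at 110, 75.7 and 74.9 FPKM. Without Fn1 the sum was 31.6, 22.7 and 39.5 FPKM. Both sums were lowest in Pcgf1 KO and differed in the order of the other samples. In each sample the largest marker after Fn1 was Thy1, at 14.2, 6.39 and 13.5 FPKM. Col5a1, Dcn, Mfap5, Lox, Loxl1 and Twist1 were not lower in Pcgf1 KO than in WT, while the other markers above 0 were. The sums thus do not describe each marker. In bulk RNA, fewer cells of a type and less RNA per cell cannot be told apart.

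The pathway was present at very unequal levels. Of the 41 genes, 38 were above 0 in at least 1 sample, 32 in WT, 32 in Pcgf1 KO and 38 in rescued cells. A level of 1 FPKM was reached by 20 genes and a level of 5 FPKM by 8, which were Porcn, Lrp5, Lrp6, Sfrp1, Sfrp2 and the Tcf genes. The 19 Wnt ligands were low, with summed levels of 7.71 FPKM in WT, 8.75 FPKM in Pcgf1 KO and 10.5 FPKM in rescued cells. The 8 secreted antagonists summed to 52.2, 48.6 and 49.4 FPKM in the same order. The 3 Tcf genes summed to 72.5, 77.3 and 67.5 FPKM. Wnt1, Fzd5 and Dkk4 were listed at 0 in all 3 samples. A further 11 genes, Wnt2, Wnt2b, Wnt5b, Wnt8b, Wnt9b, Wnt10a, Wnt10b, Wnt16, Rspo2, Dkk1 and Dkk2, stayed between 0 and 0.865 FPKM, and none of them passed 2-fold in any of the comparisons.

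**Figure D1:**
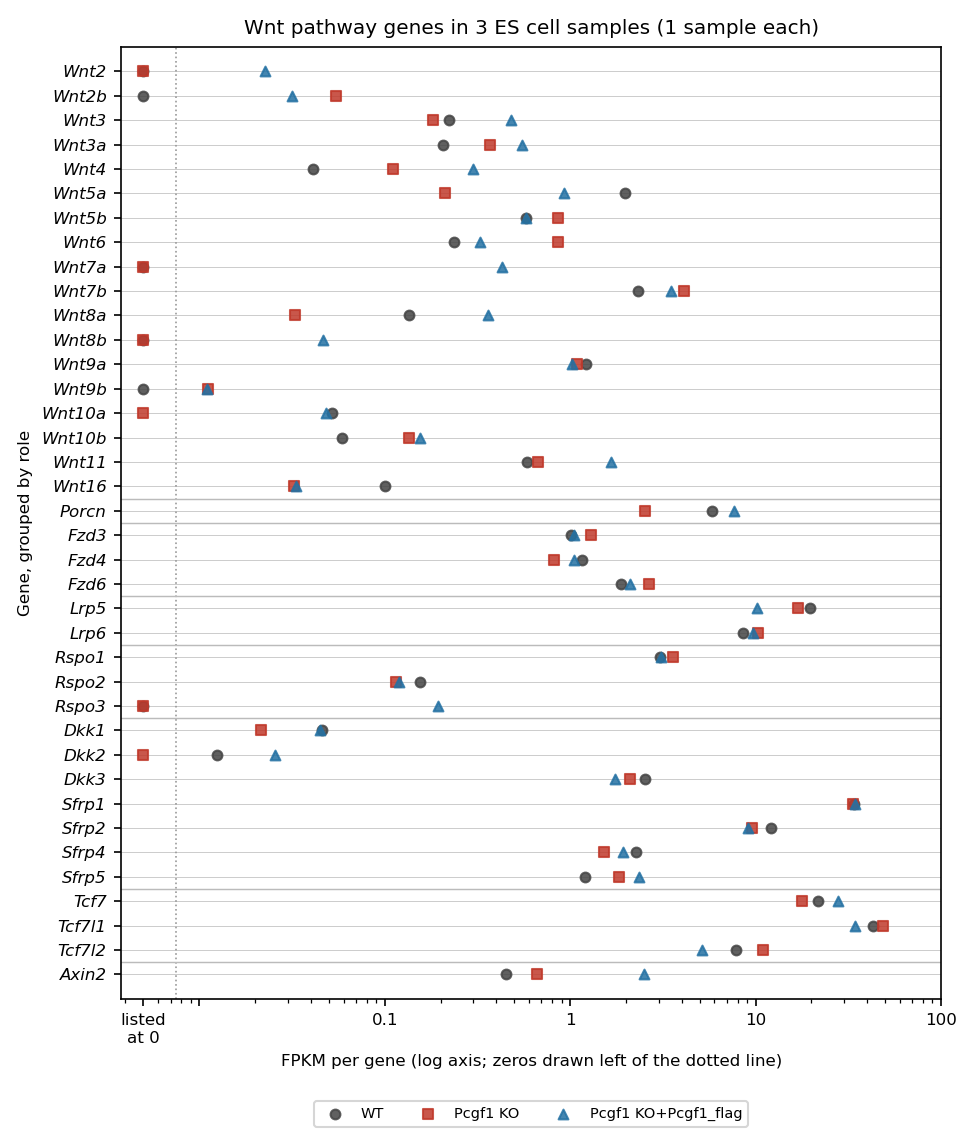
FPKM per gene (log axis) for the 38 genes of the Wnt pathway above 0 in at least 1 of the 3 samples, grouped by role, with 1 symbol per sample and zeros drawn left of the dotted line. Most Wnt ligands lie below 1 FPKM, while Sfrp1 lies near 34 FPKM and Tcf7l1 between 34.5 and 48.5 FPKM.

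In Pcgf1 KO against WT, few of the genes differed. Wnt5a and Porcn were lower past 2-fold, Wnt6 was higher, and the other 38 did not pass. Over all 25350 genes, 4.98% were lower and 2.16% higher, and over the 13424 genes above 0 in 1 of these samples, 9.41% were lower and 4.07% higher. Of the 34 pathway genes above 0 in 1 of these samples, 5.88% were lower and 2.94% higher. These shares stand for 2 genes and 1 gene, so no difference from the 13424 genes is read from them. The median log2 ratio of the 34 pathway genes was 0.06, beside -0.12 over all genes above 0. Scaling the 3 samples by the median of their gene ratios moved the median log2 ratio of all genes in this comparison by 0.11.

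In rescued cells against Pcgf1 KO, 8 of the 41 genes were higher past 2-fold and 2 were lower. The higher genes were the ligands Wnt3, Wnt5a, Wnt7a, Wnt8a and Wnt11 together with Porcn, Rspo3 and Axin2, and the lower genes were Wnt6 and Tcf7l2. Wnt7a and Rspo3 were listed at 0 in Pcgf1 KO, so that they count as higher only through the pseudocount. Over all genes 6.35% were higher and 2.22% lower, and over the 13700 genes above 0 in 1 of these samples, 11.8% were higher and 4.11% lower. Of the 38 pathway genes above 0, 21.1% were higher and 5.26% lower, and their median log2 ratio was 0.18 beside 0.05 over all genes above 0. Wnt2, Wnt7a, Wnt8b, Wnt10a, Rspo3 and Dkk2 were listed at 0 in Pcgf1 KO and are among these 38 only through rescued cells. No pathway gene entered through Pcgf1 KO alone, so this filter leans toward higher. Of the 8 higher genes, Wnt3, Wnt5a, Wnt7a, Wnt8a and Rspo3 stayed below 1 FPKM in both samples, and Wnt11 and Axin2 reached it in rescued cells alone.

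In rescued cells against WT, 6 genes were higher past 2-fold, namely Wnt3a, Wnt4, Wnt7a, Wnt11, Rspo3 and Axin2, and Wnt5a was lower. Over all genes 3.99% were higher and 2.36% lower, and over the 13824 genes above 0 in 1 of these samples, 7.31% were higher and 4.32% lower. Of the 38 pathway genes above 0, 15.8% were higher and 2.63% lower, with a median log2 ratio of 0.16 beside -0.07 over all genes above 0. Wnt7a and Rspo3 were listed at 0 in WT, so that they count as higher only through the pseudocount. They and Wnt2, Wnt2b, Wnt8b and Wnt9b, also listed at 0 in WT, are among these 38 only through rescued cells. No pathway gene entered through WT alone, so this filter leans toward higher too. Each pair of comparisons shares a sample, so their values are given side by side and were not correlated.

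**Figure D2:**
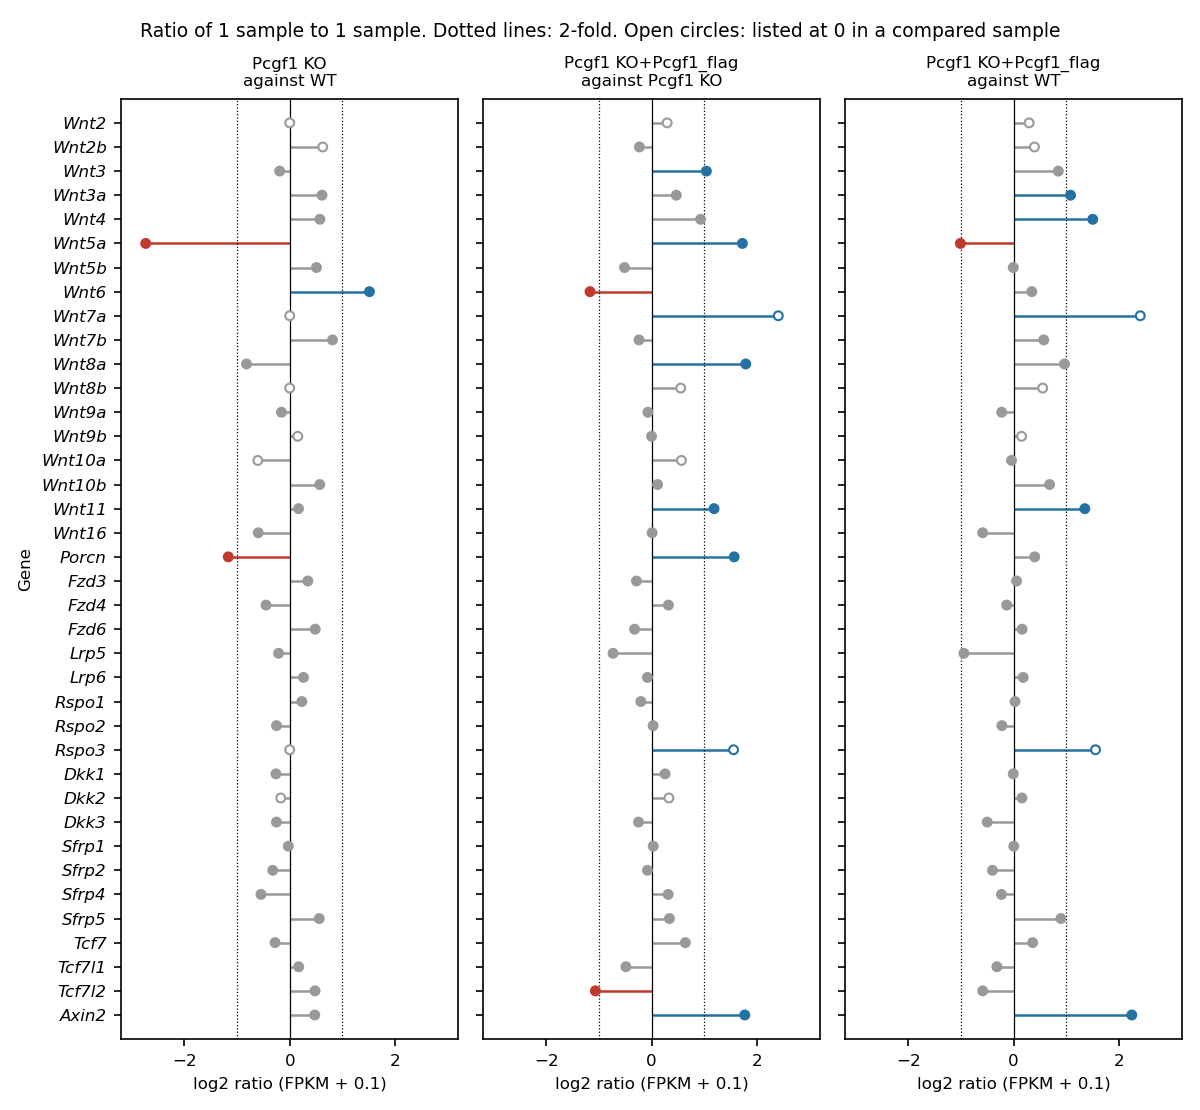
Log2 ratio of FPKM plus 0.1 in the 3 comparisons for the same 38 genes, with dotted lines at 2-fold, blue for higher and red for lower past that limit, and open circles where a compared sample was listed at 0. Wnt5a and Porcn lie left of the lower line in Pcgf1 KO against WT and right of the upper line in rescued cells against Pcgf1 KO, and Axin2 lies to the right in both comparisons of the rescued cells.

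Wnt5a, the ligand best known for signalling without beta-catenin (ENSMUSG00000021994, chr14:28504750-28527448 of GRCm38, plus strand), showed the widest difference between Pcgf1 KO and WT among the genes. Its level was 1.97 FPKM in WT, 0.210 FPKM in Pcgf1 KO and 0.926 FPKM in rescued cells. The log2 ratio was -2.74 in Pcgf1 KO against WT, 1.73 in rescued cells against Pcgf1 KO and -1.01 in rescued cells against WT, so the rescued level lay between the other two. The last ratio was at the edge of the limit and was -0.93 with median-of-ratios scaling. With a pseudocount of 1 FPKM the ratios were -1.29, 0.67 and -0.62 in the same order. Only Pcgf1 KO against WT passed 2-fold with it. In each sample most of the level came from 1 first exon, whose transcripts were at 1.81 FPKM in WT, 0.126 FPKM in Pcgf1 KO and 0.926 FPKM in rescued cells. A first exon farther upstream was listed at 0.164 FPKM in WT and at 0 in the other samples. The last exons of Wnt5a were listed at 0 in all 3 samples, so its value rests on first exons alone. Feeder fibroblast markers moved in the same direction in part. In Pcgf1 KO against WT, 5 of the 21 measured markers were lower past 2-fold and 0 were higher, which is 26.3% and 0% of the 19 above 0, beside 9.41% and 4.07% of all genes above 0. In rescued cells against Pcgf1 KO 8 were higher and 1 was lower, which is 42.1% and 5.26%, beside 11.8% and 4.11%. Thy1, a surface protein of fibroblasts, was at 14.2, 6.39 and 13.5 FPKM in WT, Pcgf1 KO and rescued cells, and the collagen gene Col1a1 was at 1.88, 0.390 and 2.21 FPKM. Other markers did not follow, with Dcn at 0.352, 0.779 and 1.18 FPKM, Mfap5 at 3.28, 4.38 and 9.38 FPKM and Twist1 at 2.09, 3.19 and 0.763 FPKM. These 5 markers were chosen after their values were seen. The part of the feeder cells in the values of Wnt5a, of Porcn and of the ligands that were higher in rescued cells was not tested.

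Porcn (ENSMUSG00000031169, chrX:8193848-8206525, minus strand) was at 5.79 FPKM in WT, 2.52 FPKM in Pcgf1 KO and 7.67 FPKM in rescued cells. The log2 ratio was -1.17 in Pcgf1 KO against WT, 1.57 in rescued cells against Pcgf1 KO and 0.40 in rescued cells against WT. Pcgf1 KO was thus the low sample, and the other two differed by less than 2-fold. All of the level came from 1 annotated first exon. The X chromosome as a whole did not stand apart, with a median log2 ratio in Pcgf1 KO against WT of -0.09 over 160 genes above 5 FPKM in all samples, beside -0.06 over all 5875 such genes. Wls, the carrier that takes the lipid-modified ligand to the surface, was not among the selected genes, but it was likewise lowest in Pcgf1 KO, at 1.79, 0.539 and 1.21 FPKM, with log2 ratios of -1.56, 1.03 and -0.53.

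Wnt6 was the only ligand to be higher past 2-fold in Pcgf1 KO than in WT. It was at 0.236 FPKM in WT, 0.859 FPKM in Pcgf1 KO and 0.326 FPKM in rescued cells, with log2 ratios of 1.52 in Pcgf1 KO against WT, -1.17 in rescued cells against Pcgf1 KO and 0.34 in rescued cells against WT. Pcgf1 KO was the high sample. Wnt6 has a first exon at its annotated start and a second one inside the gene. In Pcgf1 KO both contributed almost equally, at 0.429 and 0.430 FPKM, and in rescued cells the inner one was listed at 0. By the steps between the lowest FPKM values, and assuming the longest annotated coding transcript, the gene value stands for about 9 fragments in WT, 36 in Pcgf1 KO and 13 in rescued cells.

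Several ligands were highest in rescued cells. Wnt11, which acts in convergent extension movements and in heart development, was at 0.589 FPKM in WT, 0.673 FPKM in Pcgf1 KO and 1.66 FPKM in rescued cells. The log2 ratios were 0.17 in Pcgf1 KO against WT and 1.35 in rescued cells against WT. WT and Pcgf1 KO lay close to each other and the rescued cells stood above them. Wnt7a was listed at 0 in WT and in Pcgf1 KO and was at 0.430 FPKM in rescued cells. Assuming the longest annotated coding transcript, this stands for about 27 fragments. No fold is given for Wnt7a. Of its transcripts in rescued cells, 0.126 FPKM began at the annotated first exon and 0.304 FPKM at a first exon without an annotated splice donor. Its last exons were listed at 0, so the assumed length may not be that of the listed transcripts.

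Wnt3, Wnt3a and Wnt8a, ligands that act through beta-catenin, were all below 1 FPKM. Wnt3, which is needed for the primitive streak, was at 0.223 FPKM in WT, 0.183 FPKM in Pcgf1 KO and 0.481 FPKM in rescued cells. Wnt3a was at 0.206, 0.368 and 0.548 FPKM, and Wnt8a at 0.135, 0.0328 and 0.359 FPKM in the same order. All 3 were highest in rescued cells, and WT and Pcgf1 KO had no common order among them. Wnt4, a ligand of kidney and gonad development, was at 0.0412, 0.110 and 0.300 FPKM, with a log2 ratio of 1.503 in rescued cells against WT. These levels stand for few fragments, about 5, 1 and 12 for Wnt8a and about 3, 9 and 25 for Wnt4. With a pseudocount of 1 FPKM none of the ratios of Wnt3, Wnt3a, Wnt4, Wnt6, Wnt7a, Wnt8a or Wnt11 passed 2-fold.

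The most abundant ligands differed less as genes. Wnt7b was at 2.31 FPKM in WT, 4.13 FPKM in Pcgf1 KO and 3.48 FPKM in rescued cells, with a log2 ratio of 0.81 in Pcgf1 KO against WT. Wnt9a was at 1.22, 1.08 and 1.03 FPKM. Neither passed 2-fold. The first exons of Wnt7b differed more than the gene. Its most upstream first exon was at 1.002 FPKM in WT, 4.13 FPKM in Pcgf1 KO and 3.48 FPKM in rescued cells, a log2 ratio of 1.94 in Pcgf1 KO against WT. In WT the rest of the level came from an annotated first exon at 0.530 FPKM and one without an annotated donor at 0.777 FPKM, both listed at 0 in the other samples.

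The receptors hardly differed. Fzd3 was at 1.005, 1.30 and 1.05 FPKM in WT, Pcgf1 KO and rescued cells, Fzd4 at 1.15, 0.817 and 1.04 FPKM, and Fzd6 at 1.87, 2.66 and 2.10 FPKM. Over the 3 genes and the 3 comparisons, the log2 ratios lay between -0.45 and 0.49. Of the co-receptors, which pair with a Frizzled receptor to receive the ligand, Lrp6 was at 8.56, 10.3 and 9.71 FPKM. Lrp5 was at 19.7 FPKM in WT, 17.0 FPKM in Pcgf1 KO and 10.2 FPKM in rescued cells, with a log2 ratio of -0.95 in rescued cells against WT. No receptor or co-receptor passed 2-fold in any comparison. Fzd1, Fzd2, Fzd8, Fzd9 and Fzd10 were not analysed here. Each has a single exon in GENCODE vM21, and of 1328 protein-coding genes with 1 exon only 8 (0.602%) were named in all 3 files, beside 80.6% of 20596 genes with more exons. The view of the Frizzled family given by these files is therefore partial.

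The R-spondins differed in level and not in a common direction. Rspo1 was at 3.04 FPKM in WT, 3.58 FPKM in Pcgf1 KO and 3.09 FPKM in rescued cells. Rspo3 was listed at 0 in WT and in Pcgf1 KO and was at 0.194 FPKM in rescued cells, about 12 fragments. Rspo2 stayed below 1 FPKM in every sample.

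No secreted antagonist passed 2-fold. Sfrp1, which binds Wnt ligands outside the cell, was the most abundant of them and differed little, at 34.1 FPKM in WT, 33.5 FPKM in Pcgf1 KO and 34.2 FPKM in rescued cells, with log2 ratios between -0.03 and 0.03. Sfrp2 was at 12.04, 9.61 and 9.09 FPKM, Sfrp4 at 2.27, 1.52 and 1.92 FPKM, and Sfrp5 at 1.21, 1.83 and 2.34 FPKM. Dkk3 was at 2.52, 2.10 and 1.75 FPKM. Among the 8 genes the log2 ratios ranged from -0.55 to 0.56 in Pcgf1 KO against WT and from -0.50 to 0.90 in rescued cells against WT, where Sfrp5 was at the upper end.

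Axin2, the feedback inhibitor that is widely used as a readout of beta-catenin signalling (ENSMUSG00000000142, chr11:108920349-108950783, plus strand), was at 0.451 FPKM in WT, 0.666 FPKM in Pcgf1 KO and 2.51 FPKM in rescued cells. The log2 ratio was 0.48 in Pcgf1 KO against WT, 1.77 in rescued cells against Pcgf1 KO and 2.25 in rescued cells against WT. The rescued cells stood above both other samples, which did not differ past 2-fold. With pseudocounts of 0.01 and 1 FPKM and with median-of-ratios scaling, its log2 ratio lay between 1.08 and 1.90 in rescued cells against Pcgf1 KO and between 1.28 and 2.45 in rescued cells against WT. The first exons in use differed too. The most upstream annotated first exon was listed at 0 in WT and Pcgf1 KO and was at 1.18 FPKM in rescued cells. The next was listed at 0 in WT and was at 0.405 FPKM in Pcgf1 KO and 0.997 FPKM in rescued cells. The next after it differed in the other direction between WT and rescued cells, at 0.451 FPKM in WT, 0.262 FPKM in Pcgf1 KO and 0.334 FPKM in rescued cells. It made up 100% of the first-exon sum in WT and 13.3% in rescued cells. The 7 measured genes of a list of 8 further targets of Wnt signals had no common order. Sp5, at 0.757, 0.461 and 1.33 FPKM in WT, Pcgf1 KO and rescued cells, and T (Brachyury), at 0.221, 0.170 and 0.331 FPKM, were lowest in Pcgf1 KO and highest in rescued cells. Esrrb, at 85.3, 94.8 and 77.2 FPKM, and Klf2, at 517, 590 and 357 FPKM, were highest in Pcgf1 KO and lowest in rescued cells, as was Myc, while Cdx1 was highest in Pcgf1 KO and Ccnd1 lay between 38.2 and 38.9 FPKM. In rescued cells against Pcgf1 KO, Sp5 was higher and Myc lower past 2-fold, and the median log2 ratio of the 7 genes was -0.30.

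**Figure D3:**
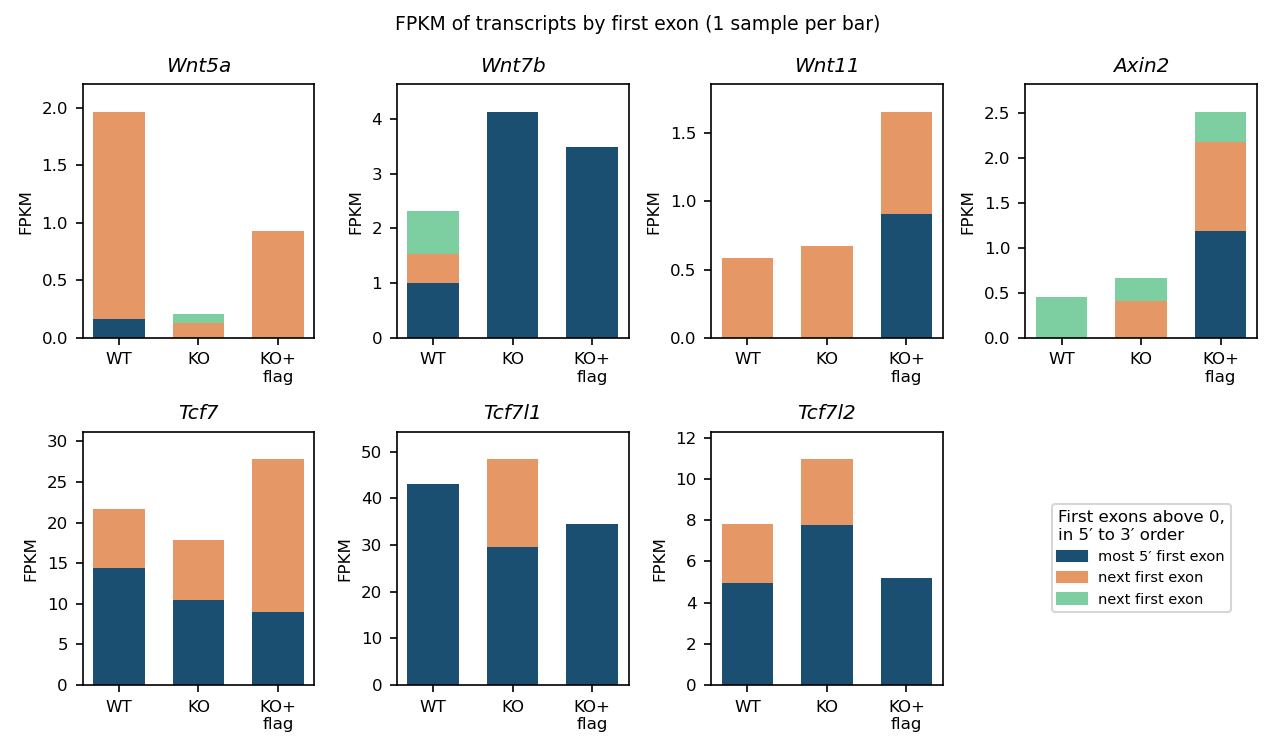
Stacked FPKM of the transcripts starting at each first exon above 0 in 7 of the genes, in 5′ to 3′ order, with 1 bar per sample. In rescued cells the most upstream first exon appears in Wnt11 (0.905 FPKM) and Axin2 (1.18 FPKM), and in Tcf7 the downstream first exon stands above the upstream one.

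The Tcf genes encode the factors that carry beta-catenin to DNA, and Tcf7l1 is the main repressor among them in ES cells. Tcf7l1 was at 43.0 FPKM in WT, 48.5 FPKM in Pcgf1 KO and 34.5 FPKM in rescued cells, and it did not pass 2-fold. Tcf7 was at 21.6, 17.8 and 27.8 FPKM and did not pass either. Tcf7l2 was at 7.82 FPKM in WT, 10.97 FPKM in Pcgf1 KO and 5.17 FPKM in rescued cells, and only the ratio of rescued cells to Pcgf1 KO passed, with a log2 of -1.07. At the upstream first exon Tcf7l2 was at 4.95, 7.78 and 5.17 FPKM. A first exon inside the gene was at 2.87 FPKM in WT and 3.19 FPKM in Pcgf1 KO and was listed at 0 in rescued cells.

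Tcf7 has a long form that starts at an upstream first exon and holds the beta-catenin binding part, and a short form from a downstream start that lacks it. The upstream first exon was at 14.4 FPKM in WT, 10.5 FPKM in Pcgf1 KO and 9.01 FPKM in rescued cells. The downstream first exon was at 7.23, 7.31 and 18.8 FPKM. The splice donors of these first exons lie at chr11:52282928 and chr11:52282554. Whether the transcripts of either first exon encode the long or the short form was not tested. The upstream exon thus made up 66.6% of the first-exon sum in WT, 59.0% in Pcgf1 KO and 32.4% in rescued cells. These are shares of starts and are not read as shares of the long and short forms. In Tcf7l1, the annotated first exon was at 43.0, 29.6 and 34.5 FPKM, and a start without an annotated donor was listed above 0 only in Pcgf1 KO, at 18.9 FPKM or 38.9% of its sum there.

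Such shifts between first exons were frequent in these files. In all, 3224 genes had 2 or more first exons above 0 and a first-exon sum of at least 1 FPKM in each sample. The share of a first exon differed by 30 percentage points or more in 37.4% of them between Pcgf1 KO and WT, in 35.6% between rescued cells and Pcgf1 KO and in 37.6% between rescued cells and WT. The pathway genes in that set were Wnt7b, Tcf7, Tcf7l1 and Tcf7l2, and of these 4 genes, 2, 1 and 3 did so. Wnt5a, Wnt11 and Axin2 were below 1 FPKM in at least 1 sample and are not covered by these shares. Over the pathway, 52 first exons were above 0, 49 of them with a splice donor annotated in GENCODE vM21, and 11 genes used 2 or more. A shift in a single gene is therefore a description of the assembled transcripts in these libraries.

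Exon skipping was listed for the Tcf genes, Porcn and Lrp6. In Porcn, Tcf7 and Tcf7l1, 1 skipped exon each is a coding exon whose length is a multiple of 3, so that both forms keep the reading frame. The Tcf7l2 events include exons of 69 and 51 bases, also multiples of 3, which are not shown. The sequences of the first 3 are shown because they are the parts of the proteins that differ between the forms. They are taken from GENCODE vM21 transcripts, 5′ to 3′ on the sense strand, with the skipped exon in capitals and 15 bases of each neighbouring exon in lower case. The exons lie at chrX:8203026-8203043 (Porcn, 18 bases), chr11:52258853-52258945 (Tcf7, 93 bases) and chr6:72648801-72648842 (Tcf7l1, 42 bases) of GRCm38, all on the minus strand.
Porcn exon: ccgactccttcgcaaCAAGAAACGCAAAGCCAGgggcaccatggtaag
Tcf7 exon: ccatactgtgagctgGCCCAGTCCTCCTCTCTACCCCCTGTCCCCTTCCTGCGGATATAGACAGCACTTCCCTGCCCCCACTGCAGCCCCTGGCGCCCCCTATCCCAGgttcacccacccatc
Tcf7l1 exon: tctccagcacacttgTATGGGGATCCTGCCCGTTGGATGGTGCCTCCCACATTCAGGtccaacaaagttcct

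The Tcf7l1 exon was in 30.8% of the FPKM of both forms in WT, 66.5% in Pcgf1 KO and 31.5% in rescued cells. Pcgf1 KO was the high sample and the other two were alike in value. The Tcf7 exon was in 59.9% in WT, 27.7% in Pcgf1 KO and 47.7% in rescued cells, with Pcgf1 KO the low sample. The Porcn exon, a small alternative exon of this enzyme, differed little, at 17.1%, 18.2% and 20.8%, although the gene level differed past 2-fold. A second Tcf7 exon, of 73 bases, was in 44.3%, 34.1% and 29.5%, and an Lrp6 exon of 394 bases was in 76.8%, 100% and 100%. Tcf7l2 had 6 events, with shares from 0 to 100%. Over all genes, 1811 skipped exons reached 1 FPKM over both forms in each sample, with each form above 0 in at least 1. The share differed by 30 percentage points or more in 17.5% of them between Pcgf1 KO and WT, 17.1% between rescued cells and Pcgf1 KO and 17.4% between rescued cells and WT. Of the 11 events of the pathway, which belong to 5 genes and share transcripts, 5 did so in each comparison.

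**Figure D4:**
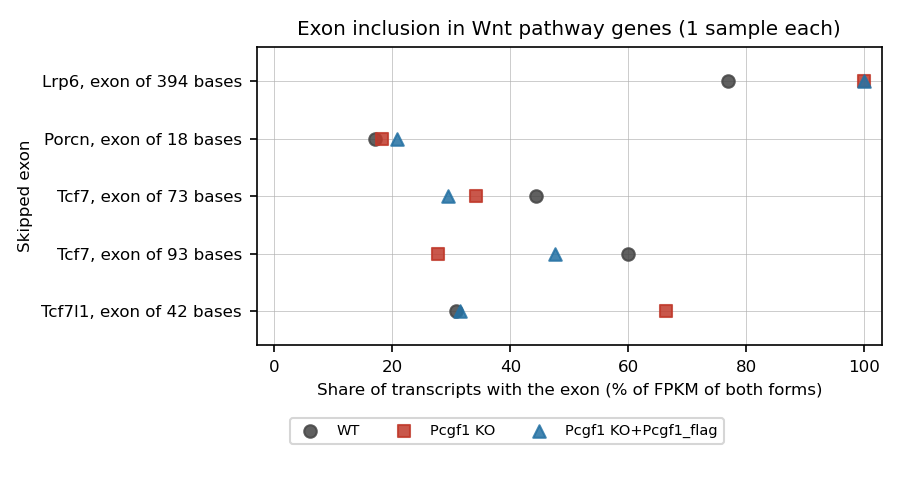
Share of transcripts that hold a skipped exon (% of the FPKM of both forms) for 5 exons of Lrp6, Porcn, Tcf7 and Tcf7l1, with 1 symbol per sample. Pcgf1 KO stands apart for the Tcf7l1 exon of 42 bases (66.5%) and the Tcf7 exon of 93 bases (27.7%), and the Porcn exon lies between 17.1% and 20.8% in all samples.

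Pcgf1 acts in PRC1.1, which is brought to unmethylated CG-rich promoters by the CXXC-domain protein Kdm2b. The promoters of the pathway genes were therefore described by their CG dinucleotides, with sequences of 250 bases before to 50 bases after the start from RefSeq (GRCm38.p6). Of the genes, 26 matched with 31 promoters. Wnt5a and Porcn, the genes lower past 2-fold in Pcgf1 KO against WT, had no matched promoter and are not covered. The 31 promoters held a median of 29 CG dinucleotides, from 4 to 58. The median was 18 over 13287 promoters of genes above 0 in at least 1 sample and 7 over all 32851 promoters. At least 20 CG dinucleotides were found in 67.7% of the pathway promoters, beside 45.4% and 26.5%. The median GC content was 70%, beside 59.7% and 52.7%. Where a gene had several promoters each was counted, genes listed at 0 were kept, and no binding data were analysed here. The letters CTTTGAT, a core of the sites that Tcf factors bind, were searched on both strands. They occurred in 2 of the pathway promoters (6.45%), 1 of Wnt5b and the upstream one of Wnt11, beside 2.83% for genes above 0 and 3.73% for all promoters.

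**Figure D5:**
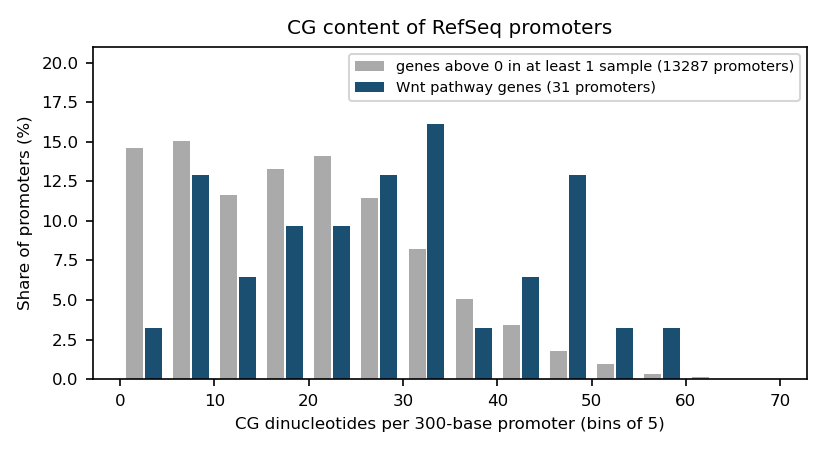
Share of promoters (%) by the number of CG dinucleotides per 300-base promoter, in bins of 5, for the 31 promoters of the pathway genes and for the 13287 promoters of genes above 0 in at least 1 sample. The pathway promoters lie farther to the right, with medians of 29 and 18.

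The promoters of Wnt11, Axin2 and Wnt7a are shown because the first exons after 3 of them were listed above 0 in rescued cells alone. Other genes met this criterion too and are not shown. The sequences are the 250 bases before the start, 5′ to 3′ on the strand of the gene. They are from RefSeq (GRCm38.p6), with CG dinucleotides in capitals. They lie at chr7:98834862-98835111 (plus strand, upstream start of Wnt11, 37 CG dinucleotides), chr7:98838595-98838844 (plus strand, downstream start of Wnt11, 16), chr11:108920099-108920348 (plus strand, Axin2, 24) and chr6:91411354-91411603 (minus strand, Wnt7a, 34). In the upstream Wnt11 promoter, the motif is found on the reverse strand with its leftmost base at position -51 from the start. The first exons of Wnt2 and Wnt8b were also above 0 in rescued cells alone, at 0.0226 and 0.0466 FPKM. With the bases after the start included, their promoters held 27 and 6 CG dinucleotides. Counted in the same way, the upstream Wnt11 promoter held 45, Axin2 31 and Wnt7a 42. Rspo3 met the criterion but had no matched promoter. The shown promoters thus do not stand for all starts listed in rescued cells alone.
Wnt11 upstream promoter: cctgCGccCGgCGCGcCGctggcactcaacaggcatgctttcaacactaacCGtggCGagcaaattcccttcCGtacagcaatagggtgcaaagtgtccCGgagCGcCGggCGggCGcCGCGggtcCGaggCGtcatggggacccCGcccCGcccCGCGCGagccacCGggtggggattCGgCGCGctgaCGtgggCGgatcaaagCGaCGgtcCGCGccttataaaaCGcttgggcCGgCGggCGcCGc
Wnt11 downstream promoter: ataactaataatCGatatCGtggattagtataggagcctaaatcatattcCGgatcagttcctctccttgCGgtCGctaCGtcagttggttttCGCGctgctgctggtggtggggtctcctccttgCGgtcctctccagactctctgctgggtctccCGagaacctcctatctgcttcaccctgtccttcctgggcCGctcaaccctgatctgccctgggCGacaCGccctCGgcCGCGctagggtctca
Axin2 promoter: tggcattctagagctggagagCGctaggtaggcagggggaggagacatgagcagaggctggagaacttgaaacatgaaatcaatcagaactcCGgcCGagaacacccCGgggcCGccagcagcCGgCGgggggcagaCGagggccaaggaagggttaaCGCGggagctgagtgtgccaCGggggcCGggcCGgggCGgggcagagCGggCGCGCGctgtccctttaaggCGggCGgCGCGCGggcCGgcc
Wnt7a promoter: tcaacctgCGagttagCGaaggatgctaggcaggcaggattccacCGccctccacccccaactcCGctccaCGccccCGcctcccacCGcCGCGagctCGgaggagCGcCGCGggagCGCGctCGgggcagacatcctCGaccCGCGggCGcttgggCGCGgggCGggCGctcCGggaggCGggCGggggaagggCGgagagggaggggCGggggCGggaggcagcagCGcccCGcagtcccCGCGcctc

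The upstream Wnt11 first exon, which follows the promoter with more CG dinucleotides, was listed at 0 in WT and Pcgf1 KO and was at 0.905 FPKM in rescued cells. The downstream first exon was at 0.588 FPKM in WT, 0.673 FPKM in Pcgf1 KO and 0.754 FPKM in rescued cells. Most of the difference in Wnt11 between rescued cells and the other samples was thus listed at the upstream start.

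Of 52 further genes of the pathway, 46 were measured and 43 were above 0. In Pcgf1 KO against WT 3 were lower and 3 were higher past 2-fold, in rescued cells against Pcgf1 KO 3 were lower and 4 higher, and in rescued cells against WT 1 was lower and 1 higher. Of the 43 above 0, 6.98% were lower and 6.98% higher in Pcgf1 KO against WT, beside 9.41% and 4.07% of all genes above 0, and 6.98% were lower and 9.30% higher in rescued cells against Pcgf1 KO, beside 4.11% and 11.8%. In rescued cells against WT 2.38% of 42 were lower and 2.38% higher, beside 4.32% and 7.31%. The 9 measured genes of the cytoplasmic step, among them Axin1, Apc and Gsk3b of the destruction complex, did not pass 2-fold in any comparison, and neither did the 7 measured nuclear cofactors. Besides Wls, the genes that reached 1 FPKM and passed 2-fold in Pcgf1 KO against WT were Lgr6, Cdx1 and Myc. Lgr6, an R-spondin receptor, was at 0.623 FPKM in WT, 1.69 FPKM in Pcgf1 KO and 0.663 FPKM in rescued cells. Cdx1, a homeobox target of Wnt signals, was at 0.204, 1.06 and 0.811 FPKM, and Myc was at 30.3, 65.5 and 23.2 FPKM. Lgr6 and Myc were high in Pcgf1 KO only, and Cdx1 was also high in rescued cells.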

How the data were processed

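Poly(A) RNA was sequenced from 1 sample each of WT, Pcgf1 KO and Pcgf1 KO+Pcgf1_flag ES cells. By the study's methods, reads were aligned with TopHat to mm10, and RPKM and DEGseq were used, and the submitters' processing notes name TopHat2 2.0.12, Cufflinks 2.2.1 and HTSeq 0.6.0. The authors deposited event lists (first and last exons, skipped exons, retained introns) giving each event's FPKM. The software behind these lists is not given in the sources used here. FPKM per gene name, log2 ratios with a pseudocount of 0.1 FPKM and the 2-fold limit were computed as described in the text, for names alone on their row and found in all 3 files, with names in the form of dates left out. Without counts, no count test and no interval was possible, and the number of fragments is an estimate from the steps of the low FPKM values. Named genes reached 1 FPKM, or 0.1 FPKM with a difference past 2-fold in any comparison, and further pathway genes were named if they reached 1 FPKM and passed 2-fold in Pcgf1 KO against WT. The genes and lists were chosen with earlier results of these data known. Of the WT first-exon rows above 0, 94.2% of 18115 had an end at an exon boundary of GENCODE vM21 (GRCm38, the same build as mm10). The ratio script was tested on simulated data. Alternatives were pseudocounts of 0.01 and 1 FPKM, first-exon or last-exon rows alone, median-of-ratios scaling and a filter of 1 FPKM. Python 3.11.15, numpy 2.4.6, pandas 2.3.3 and matplotlib 3.10.9 were used.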

Additional observations from a re-analysis of the deposited data

Results flagged for a closer look

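Fzd7, a Frizzled receptor, was named in the file of Pcgf1 KO alone, at 7.2872 FPKM, and therefore entered no comparison. It has 1 exon in GENCODE vM21, while the listed transcript had a spliced first exon. It was not listed in WT or in rescued cells, which is not the same as a level of 0.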

How the results depend on the processing

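With 1 sample per line, no result has a replicate check. No paired analysis was possible because each group held 1 sample. The main counts were 2 lower and 1 higher in Pcgf1 KO against WT, 2 lower and 8 higher in rescued cells against Pcgf1 KO, and 1 lower and 6 higher in rescued cells against WT. With a pseudocount of 0.01 FPKM they were 6 lower and 5 higher, 13 higher, and 2 lower and 13 higher, with a median log2 ratio of 0.27 in rescued cells against WT. With 1 FPKM they were 1 lower and 0 higher, 0 lower and 2 higher, and 0 lower and 1 higher, and the medians of rescued cells were 0.0305 against Pcgf1 KO and 0.0314 against WT. From last-exon rows alone 1 was lower in Pcgf1 KO against WT (median 0.17) and 0 were lower in rescued cells against WT. With these rows 6 were higher in rescued cells against Pcgf1 KO (median 0.0709) and 5 in rescued cells against WT. With median-of-ratios scaling 0 were lower and 7 higher in rescued cells against WT. With the filter of 1 FPKM, 0 were higher in Pcgf1 KO against WT (median -0.0913), 1 was lower and 3 higher in rescued cells against Pcgf1 KO (median -0.0801) and 2 were higher in rescued cells against WT (median 0.0142). Porcn in Pcgf1 KO against WT was -0.95 with a pseudocount of 1 FPKM. First exons taken singly were added after seeing the data. Among genes past 2-fold the direction turned in rescued cells against WT for the most downstream of the Axin2 first exons above 0 (-0.34). It also turned for a Wnt5a exon above 0 only in Pcgf1 KO (0.88 against WT, -0.88 for rescued cells against Pcgf1 KO). Among 54 such values, 12 more had the opposite sign to a gene ratio within 2-fold, and 5 of these passed 2-fold themselves (Wnt7b exons at -2.65 and -3.13 in both comparisons with WT, and the inner Wnt6 exon at -1.14 in rescued cells against WT). The cause of these changes was not tested, other than that fewer genes enter under the filter and that a larger pseudocount shrinks the ratios of low genes.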
